A study of Homo sapiens with 8 samples.

Results

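A set of 10 genes that encode protein kinases or kinase-like proteins linked to serum and growth factor responses was followed: the salt-inducible kinases SIK1 and SIK2, the NUAK kinases NUAK1 and NUAK2, the Tribbles pseudokinases TRIB1 and TRIB2, the serum- and glucocorticoid-regulated kinase SGK1, and the PIM kinases PIM1, PIM2 and PIM3. They were chosen by annotated gene symbol, with earlier results of these data known, so their counts beside all genes are a description. All 10 were found among the 18418 genes tested, each with 1 probe set. The probe set of SIK1 is annotated with SIK1 and LOC102724428, and its values therefore belong to both. Biotin-labelled cRNA was hybridised to Affymetrix arrays, and the values are log2 probe set levels from the RMA procedure. Cells were of HCT116, an established human colorectal carcinoma line, and carried a hairpin RNA that was either the control (shControl) or directed at CDK8 (shCDK8), the kinase of the Mediator kinase module. Every culture had been starved of serum for 40 h. RNA was taken at that point (starved) or once 10% fetal bovine serum had been present for 30 min (serum), which gave 4 groups of 2 arrays. Because 1 hairpin stood for each line, line differences hold the knockdown together with any other way in which these lines differed. Whether duplicates were grown as separate cultures is not stated in the labels, and the error in every p-value is the spread of these samples only, possibly a technical one.

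SIK1, SIK2, NUAK1 and NUAK2 belong to the family of AMPK-related kinases that the tumour suppressor kinase LKB1 activates. SIKs phosphorylate the CREB coactivators of the CRTC family and class IIa histone deacetylases and so keep them in the cytoplasm, and NUAKs phosphorylate a regulatory subunit of myosin phosphatase. Tribbles proteins have a kinase fold with little or no catalytic activity and act as scaffolds that bring substrates such as C/EBP transcription factors to the ubiquitin ligase COP1. SGK1 is an AGC kinase that needs PDK1 and mTORC2 for activity and was first described as a transcript induced by serum and glucocorticoids. PIM kinases are constitutively active, so their abundance, driven in many cells by cytokines through STAT factors, sets their activity.

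The promoters of SIK1 and NUAK2, both of which rose after serum, and of SIK2, the paralog of SIK1 that was not called after serum, are shown because they allow the serum responses to be set beside the sequence at the start site. Windows run from 250 bases before to 50 bases after the RefSeq start site of GRCh38.p14, 5′ to 3′ along the gene. Capitals mark every match, on either strand, to TGACGTCA (the cAMP response element), TGACG (its core), TGANTCA (AP-1), TTCNNNGAA (STAT), the CArG box of the serum response factor and TATAAA (the TATA box). The first of these contains TGACG.
SIK1, chr21:43427082-43427381, minus strand: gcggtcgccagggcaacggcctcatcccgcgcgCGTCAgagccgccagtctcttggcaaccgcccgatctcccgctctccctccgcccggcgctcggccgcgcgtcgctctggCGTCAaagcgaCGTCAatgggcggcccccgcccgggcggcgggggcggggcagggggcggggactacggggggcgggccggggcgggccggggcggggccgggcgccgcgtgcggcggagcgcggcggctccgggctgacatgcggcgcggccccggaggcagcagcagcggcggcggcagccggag
NUAK2, chr1:205321696-205321995, minus strand: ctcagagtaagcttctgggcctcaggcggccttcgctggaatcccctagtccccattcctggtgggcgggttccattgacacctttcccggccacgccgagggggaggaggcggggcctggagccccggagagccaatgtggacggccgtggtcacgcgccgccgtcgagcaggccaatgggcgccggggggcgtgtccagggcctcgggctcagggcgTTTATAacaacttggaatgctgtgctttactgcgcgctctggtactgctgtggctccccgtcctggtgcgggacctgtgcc
SIK2, chr11:111602199-111602498, plus strand: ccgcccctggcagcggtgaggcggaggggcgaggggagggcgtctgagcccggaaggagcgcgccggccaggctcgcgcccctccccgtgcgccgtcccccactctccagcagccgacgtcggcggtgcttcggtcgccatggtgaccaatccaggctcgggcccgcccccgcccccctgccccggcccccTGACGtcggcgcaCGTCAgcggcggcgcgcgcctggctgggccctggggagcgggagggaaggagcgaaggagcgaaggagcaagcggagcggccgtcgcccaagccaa
The SIK1 window held 3 matches to TGACG, all on the opposite strand, which begin at positions -217, -137 and -126 relative to the start site. SIK2 held 2, which begin at -59 and -46. TGACG occurred in 24.6% of 35116 RefSeq promoter windows of this length, so a match alone is common. NUAK2 held TATAAA on the opposite strand from -31 to -26, a motif present in 11.5% of windows. No window of the 9 matched genes held TGACGTCA (1.85% of all windows), TGANTCA (7.71%), TTCNNNGAA (7.66%) or a CArG box (1.29%), and besides NUAK2 the TATA box occurred in windows of SGK1, which has 3 start sites in the table. The 300 bases of the SIK1 window and of the LOC102724428 window were identical at 300 positions. TRIB1 had no entry in the table.

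Array medians lay between 6.44 and 6.51, and duplicates correlated across genes at r = 0.997 to 0.998. The probe set annotated with CDK8 and ADRA1B read 9.19 to 9.23 on the 4 shControl arrays and 6.99 to 7.09 on the 4 shCDK8 arrays. Of 10 colon epithelial markers, 7 lay above the median gene, with KRT8 and KRT18 at percentiles 99.8 and 99.7, while KRT20, VIL1 and LGALS4 lay below it. Of 13 measured markers of other cell types, 2 lay above the median gene, COL1A1 and CD68, and the leukocyte marker PTPRC stood at percentile 2.4. The summed level of the other-cell markers was 10.02 to 10.17 on the log2 scale over all arrays. The summed level of the epithelial markers was 14.04 to 14.07 in shControl and 14.25 to 14.33 in shCDK8 cells, and the part of these markers in the line differences given below was not tested. The markers did not move together: KRT8 (0.44 in starved cells and 0.42 after serum) and KRT18 (0.55 and 0.56) were higher in shCDK8 cells, KRT19 was lower (-0.31 and -0.34), and CDH1 was higher after serum (0.26). In starved cells CDH1 was also higher, at 9.52 on both shCDK8 arrays against 9.33 and 9.30 on the shControl arrays, but was not called. The median difference of the 10 epithelial markers was -0.03 in starved cells and -0.06 after serum. COL1A1, a fibrillar collagen, rose by 0.34 with serum averaged over the lines (adjusted p = 0.0289), and its part in the serum changes was not tested. Levels of different probe sets are not on a common scale, so these percentiles are rough, and each gene below is compared with itself only.

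**Figure D1:**
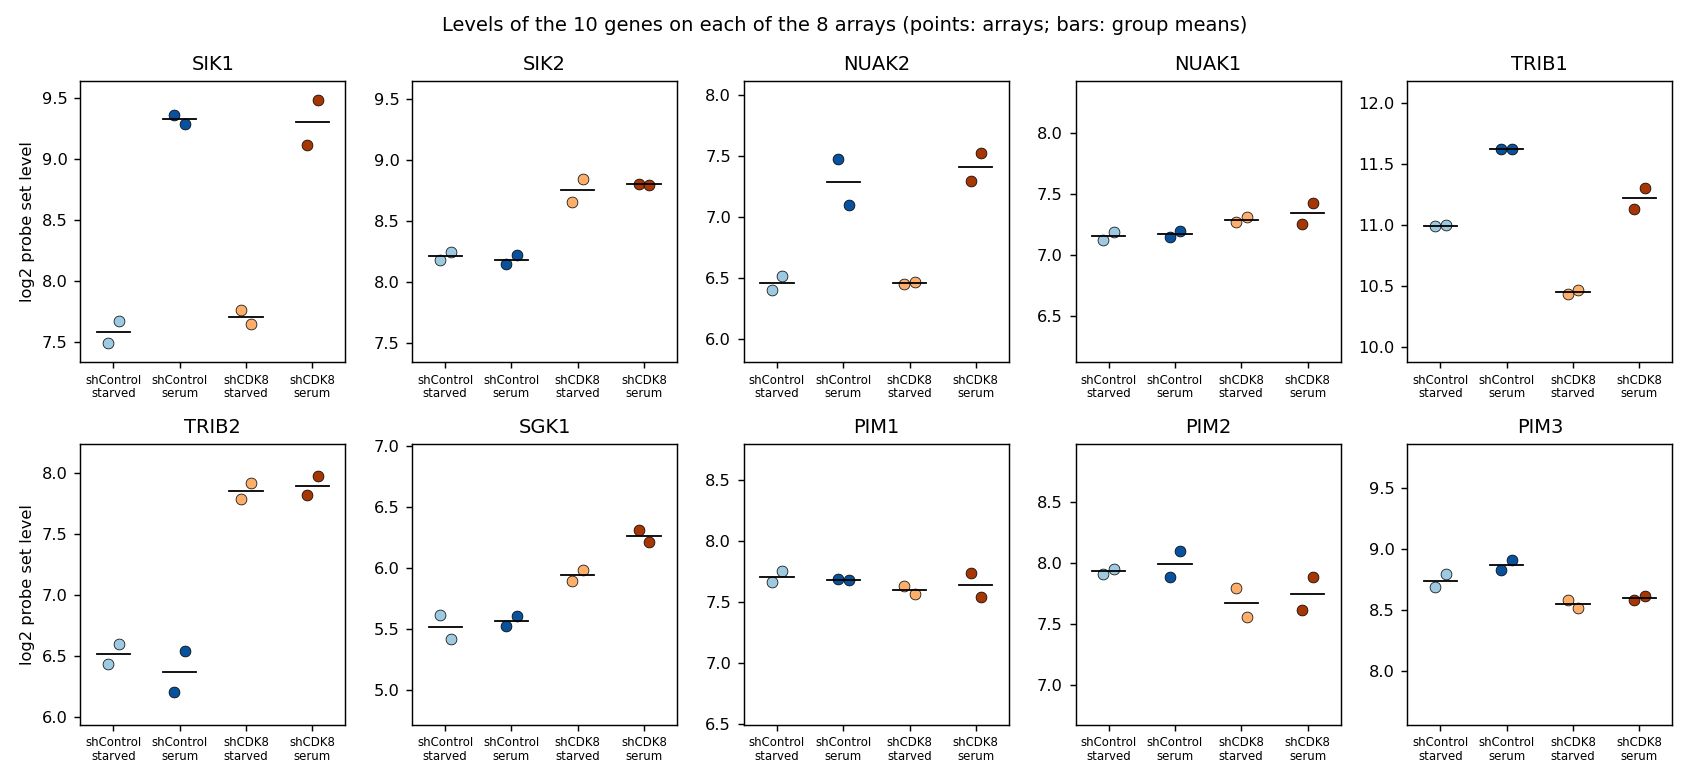
Log2 probe set levels of the 10 genes in each group, with 1 point per array and a bar at the mean of the 2 arrays; every panel spans the same number of log2 units, but panels start at different levels, so heights are compared within a gene. SIK1, NUAK2 and TRIB1 step up with serum in both lines, while TRIB2, SIK2 and SGK1 are set apart by line. TRIB1 also differs by line at each time, and NUAK1 and PIM3 are set apart by line with narrower gaps. For PIM2 the lines almost meet after serum (7.8812 in shControl against 7.8808 in shCDK8 cells).

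The first comparison asked which of these genes respond to 30 min of serum. In shControl cells SIK1, NUAK2 and TRIB1 rose and none of the 10 fell, where 86 of the 18418 genes tested (0.467%) were called, 0.429% as higher and 0.038% as lower. In shCDK8 cells the same 3 genes rose and again none fell, against 48 genes called (0.261%), 0.255% higher and 0.00543% lower. Averaged over the lines these 3 rose as well, where 0.776% of genes were called, 0.69% higher and 0.0869% lower. The median change of the 10 genes was 0.05 in shControl and 0.06 in shCDK8 cells on the log2 scale, beside -0.01 in each line for all genes, so most of the 10 moved little. All calls are from limma's moderated test with Benjamini-Hochberg adjustment over all 18418 genes, and errors of changes are standard errors. Arrays that do not overlap are common with 2 arrays a group. In shControl cells 4 of the 10 genes lay higher on both serum arrays than on both starved arrays (16.2% of all genes) and 0 lower (23.5%). In shCDK8 cells these counts were 5 (19.1%) and 0 (22.2%), and 4 genes were higher in both lines (6.41%) and 0 lower in both (7.48%).

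SIK1, a kinase that restrains CREB-dependent transcription, had the largest response of the 10. Its level was 7.49 and 7.67 on the starved shControl arrays and 9.36 and 9.29 after serum. In shCDK8 cells it was 7.76 and 7.65 before serum and 9.11 and 9.48 after it. Every serum array lay above every starved array, and the arrays of the lines overlapped at both times. SIK1 thus rose 3.35-fold in shControl cells (log2 1.74 ± 0.12, adjusted p = 6.26e-05), rank 14 among all rises, and 3.02-fold in shCDK8 cells (1.60 ± 0.12, adjusted p = 2.06e-04), rank 13. The call held in both lines without any 1 of the 8 arrays, with changes from 1.65 to 1.84 in shControl and 1.41 to 1.78 in shCDK8 cells.

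NUAK2, an LKB1-activated kinase linked to actomyosin contractility, was at 6.40 and 6.52 in starved shControl cells and at 7.48 and 7.10 after serum. In shCDK8 cells it moved from 6.45 and 6.47 to 7.30 and 7.53. Starved and serum arrays did not overlap in either line, but the 2 serum arrays of shControl cells had an SD of 0.27, the widest of this gene's 4 groups. The rise was 1.77-fold in shControl (log2 0.83 ± 0.12, adjusted p = 0.0166) and 1.94-fold in shCDK8 cells (0.95 ± 0.12, adjusted p = 0.0117). In shControl cells the call was lost on leaving out starved array 1 (0.77, adjusted p = 0.145), starved array 2 (0.88, 0.112) or serum array 1 (0.64, 0.0803). In shCDK8 cells it was lost on leaving out starved array 1 (0.95, 0.132), starved array 2 (0.96, 0.119) or serum array 2 (0.84, 0.135). In both lines the call ended when all 33297 probe sets were fitted and adjusted together (0.128 and 0.119). Averaged over both lines, with 4 arrays on each side, NUAK2 rose by 0.89 ± 0.09 (adjusted p = 9.16e-04), and that call held without any 1 array (adjusted p up to 0.00796).

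TRIB1, a pseudokinase that brings C/EBPalpha to COP1, also rose in both lines. It was at 10.99 and 11.00 in starved shControl cells and at 11.62 on both serum arrays. In shCDK8 cells it was at 10.43 and 10.47 before serum and at 11.13 and 11.30 after it. No 2 of the 4 groups overlapped: starved shCDK8 cells were lowest, followed by starved shControl, serum-treated shCDK8 and serum-treated shControl cells. TRIB1 rose 1.54-fold in shControl (log2 0.63 ± 0.07, adjusted p = 0.00438) and 1.70-fold in shCDK8 cells (0.77 ± 0.07, adjusted p = 0.00114). In shControl cells the adjusted p rose to 0.0576 when starved array 2 was left out (change 0.63) and to 0.0546 when serum array 2 was (0.62), past the threshold, and the call in shCDK8 cells held without any 1 array. Averaged over the lines the rise was 0.70 ± 0.05 (adjusted p = 1.16e-04).

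SGK1 was at 5.62 and 5.42 before and 5.53 and 5.61 after serum in shControl cells, with overlapping arrays. In shCDK8 cells its arrays separated, at 5.89 and 5.99 before and 6.32 and 6.22 after serum. SGK1 had a low mean level over all arrays, 5.82, at percentile 29.2. Its shControl values lay between the means of the other-cell markers VWF (5.35) and HBB (5.71). The means of that marker list ran from 3.61 (PTPRC) to 8.18 (COL1A1). Whether SGK1 stood near background in shControl cells was not tested. The change was 0.05 ± 0.08 in shControl (adjusted p = 0.913, 95% confidence interval -0.14 to 0.24) and 0.32 ± 0.08 in shCDK8 cells (adjusted p = 0.317, unadjusted p = 0.00331 in limma's test), and neither passed the threshold.

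The other 6 genes did not pass in either line. PIM1, a kinase whose transcript many cytokines induce, was between 7.54 and 7.75 on all 8 arrays and changed by -0.02 in shControl (95% confidence interval -0.20 to 0.15) and 0.04 in shCDK8 cells (-0.14 to 0.22). PIM2 changed by 0.06 and 0.07. PIM3 changed by 0.13 and 0.05, with serum arrays above starved arrays in both lines (adjusted p = 0.633 and 0.834). NUAK1 changed by 0.02 and 0.05, SIK2 by -0.03 and 0.05 and TRIB2 by -0.15 and 0.04. For NUAK1, SIK2 and PIM1 the upper bound of the 95% interval stayed at or below 0.22 in both lines, and for TRIB2 and PIM2 the widest upper bound was 0.33, below the changes measured for SIK1, NUAK2 and TRIB1.

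**Figure D2:**
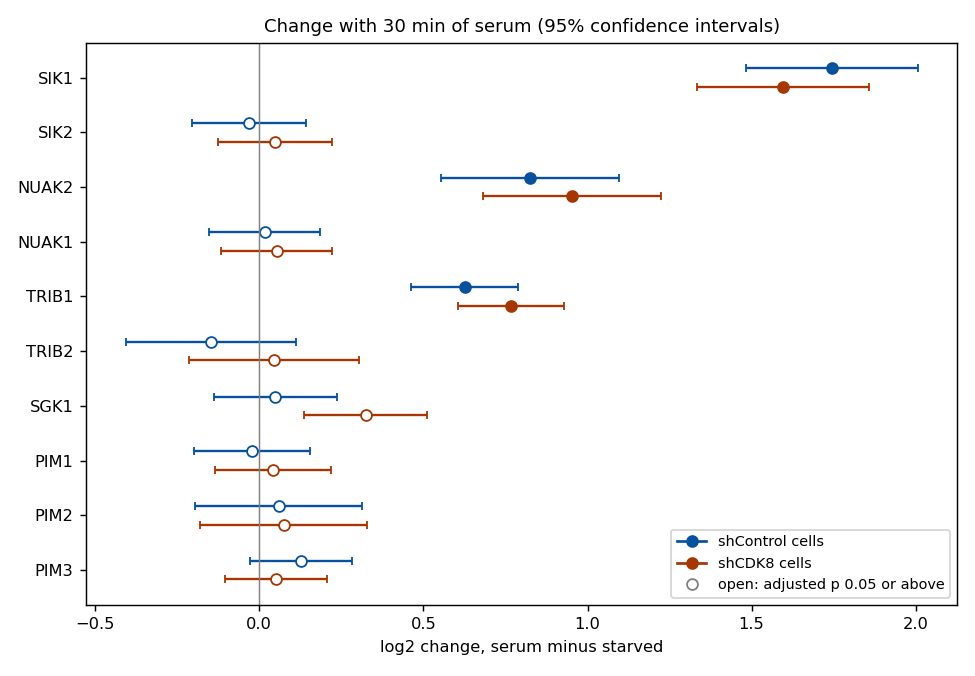
Log2 change from starved to serum-treated cells for each gene in shControl (blue) and shCDK8 (brown) cells, with bars for 95% confidence intervals of the model; filled points passed an adjusted p of 0.05. SIK1 at 1.74 and 1.60, NUAK2 at 0.83 and 0.95 and TRIB1 at 0.63 and 0.77 are the filled points, and their paralogs SIK2, NUAK1 and TRIB2 lie near 0.

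The paralogs were also set against each other within each array, a comparison chosen after the values were seen. Averaged over the lines, the log2 ratio of SIK1 to SIK2 rose by 1.66 with serum, that of NUAK2 to NUAK1 by 0.85 and that of TRIB1 to TRIB2 by 0.75. In each pair the ratio was higher on both serum arrays than on both starved arrays of the same line. These shifts are a description, since the pairs were picked for the contrast between their members.

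The next question was whether the serum response differed between the lines. None of the 10 genes passed limma's test of the difference of responses (shCDK8 minus shControl), and none of the 18418 genes did (0%). Before adjustment, limma's p was below 0.05 for 1 of the 10 and for 703 of all genes (3.82%). SIK1 differed by -0.15 ± 0.16 (95% confidence interval -0.52 to 0.22), NUAK2 by 0.13 ± 0.17 (-0.25 to 0.51) and TRIB1 by 0.14 ± 0.10 (-0.09 to 0.37). These intervals still allow a response of SIK1 that is 0.52 smaller or 0.22 larger in shCDK8 cells. That 1 gene was SGK1, with a response 0.28 ± 0.12 larger in shCDK8 cells (unadjusted p = 0.0429, adjusted p = 0.9998 in limma's test).

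**Figure D3:**
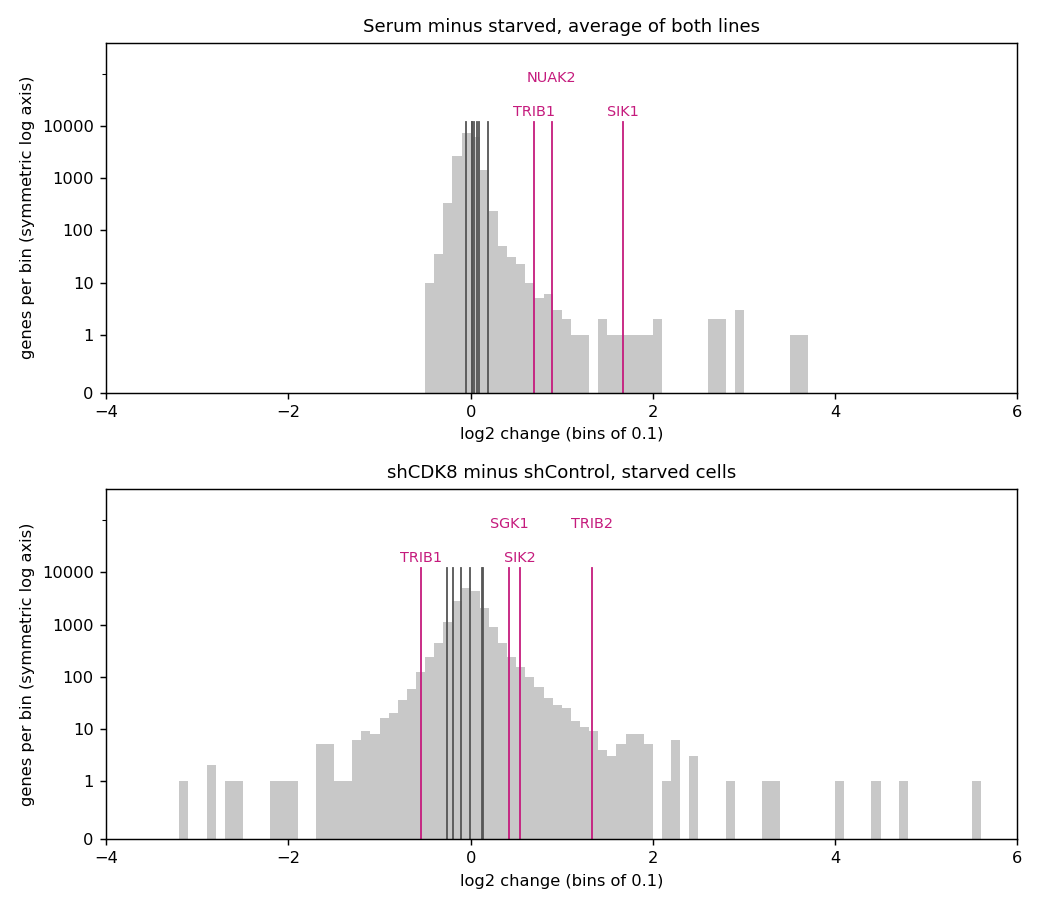
Number of genes per 0.1-wide bin of log2 change for all 18418 genes (grey bars, symmetric log axis), with vertical lines at the 10 genes, in pink with a name where called. In the upper panel, the serum change averaged over the lines, TRIB1, NUAK2 and SIK1 lie at 0.70, 0.89 and 1.67, in the sparse right tail; in the lower panel, the line difference in starved cells, TRIB1 lies at -0.54 and SGK1, SIK2 and TRIB2 at 0.42, 0.54 and 1.33.

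The lines were then compared at each time, and a partly different subset of the genes stood out, with TRIB1 in both subsets. In starved cells TRIB2, SIK2 and SGK1 were higher and TRIB1 lower in shCDK8 cells, 4 of 10 genes, where 2470 of all genes (13.4%) were called, 7.13% higher and 6.28% lower. After serum the same 4 genes were called in the same directions and PIM3 was also lower, 5 of 10 against 2624 genes (14.2%), 7.7% higher and 6.54% lower. In starved cells the arrays of the lines did not overlap for 8 of the 10, 4 higher in shCDK8 cells (24.4% of all genes) and 4 lower (27.7%), and after serum for 7, 4 higher (25.9%) and 3 lower (28%). PIM2 was among those lower after serum by a near tie, with 7.8812 on shControl array 1 against 7.8808 on shCDK8 array 2. The median difference of the 10 was 0.06 and 0.05, beside -0.01 for all genes at both times. Line differences in bulk RNA do not tell fewer cells with a transcript from less transcript per cell. The 2 line comparisons share no array with each other, but they share the same lines and 1 estimate of the spread. They are therefore not independent of each other.

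TRIB2, a Tribbles pseudokinase that also binds COP1, showed the largest difference. It was at 6.44 and 6.60 in starved and at 6.21 and 6.54 in serum-treated shControl cells, against 7.79 and 7.92, and 7.82 and 7.98, in shCDK8 cells. All 4 shCDK8 arrays lay above all 4 shControl arrays. TRIB2 was 2.52-fold higher in starved cells (log2 1.33 ± 0.12, adjusted p = 6.97e-05) and 2.88-fold higher after serum (1.52 ± 0.12, adjusted p = 2.57e-05), and both calls held without any 1 array. TRIB1 went the other way and was 1.46-fold lower in starved cells (-0.54 ± 0.07, adjusted p = 9.50e-04) and 1.32-fold lower after serum (-0.40 ± 0.07, adjusted p = 0.00501), and these calls also held without any 1 array. The log2 ratio of TRIB1 to TRIB2 within an array shifted by -1.90 in shCDK8 relative to shControl cells, averaged over the times, and did not overlap between the lines. After serum, TRIB1 in shCDK8 cells stood 0.22 above starved shControl cells and 0.40 below serum-treated shControl cells.

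SIK2, which like SIK1 phosphorylates CRTC coactivators, was at 8.18 and 8.25 in starved and 8.15 and 8.22 in serum-treated shControl cells. In shCDK8 cells it was at 8.66 and 8.85, and 8.81 and 8.80. The lines did not overlap, and times within a line did. The difference was 1.45-fold in starved cells (log2 0.54 ± 0.08, adjusted p = 0.00148) and 1.53-fold after serum (0.62 ± 0.08, adjusted p = 6.67e-04). SIK1 differed by 0.12 ± 0.12 and -0.03 ± 0.12 (adjusted p = 0.581 and 0.928). The log2 ratio of SIK1 to SIK2 differed by -0.53 in shCDK8 relative to shControl cells, averaged over the times.

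SGK1, whose arrays and low level are given above, was 1.34-fold higher in starved shCDK8 cells (log2 0.42 ± 0.08, adjusted p = 0.00877) and 1.62-fold higher after serum (0.70 ± 0.08, adjusted p = 4.95e-04). How far the low level in shControl cells affects these differences was not tested. Every shCDK8 array lay above every shControl array. In starved cells the call was lost when starved array 2 was left out, be it that of shControl (0.33, adjusted p = 0.0635) or that of shCDK8 (0.37, 0.0685), and the call after serum held without any 1 array.

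PIM3, which like the other PIM kinases promotes survival by phosphorylating BAD, was at 8.68 and 8.79 in starved and 8.82 and 8.90 in serum-treated shControl cells, and at 8.58 and 8.51, and 8.58 and 8.61, in shCDK8 cells. The lines did not overlap at either time. The difference of -0.19 ± 0.07 in starved cells did not pass (adjusted p = 0.112), and PIM3 was 1.20-fold lower after serum (-0.27 ± 0.07, adjusted p = 0.0306). The call after serum ended without any 1 of the 4 serum arrays: array 1 or 2 of shControl (-0.31, adjusted p = 0.0776, and -0.23, 0.188) and array 1 or 2 of shCDK8 (-0.25, 0.129, and -0.28, 0.0937). It also ended when all probe sets were fitted and adjusted together (0.0816). PIM2 differed by -0.26 ± 0.11 and -0.24 ± 0.11 (adjusted p = 0.194 and 0.219) and PIM1 by -0.11 and -0.05, so no other PIM gene passed.

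NUAK1 and NUAK2 did not pass in either line comparison. NUAK1 was at 7.12 to 7.19 on the shControl and 7.26 to 7.43 on the shCDK8 arrays, with differences of 0.14 ± 0.08 and 0.17 ± 0.08 (adjusted p = 0.307 and 0.178). NUAK2 differed by -0.0033 in starved cells (95% confidence interval -0.27 to 0.27) and by 0.12 after serum (-0.15 to 0.40).

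**Figure D4:**
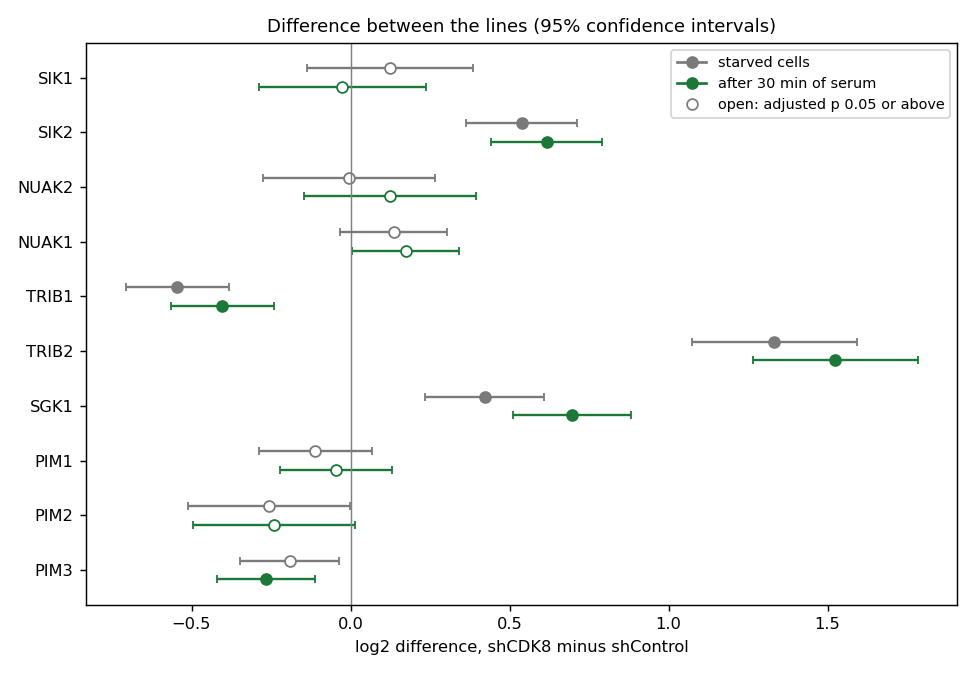
Log2 difference between shCDK8 and shControl cells for each gene in starved cells (grey) and after serum (green), with bars for 95% confidence intervals of the model; filled points passed an adjusted p of 0.05. TRIB2 lies farthest to the right at 1.33 and 1.52, TRIB1 farthest to the left at -0.54 and -0.40, and PIM3 is filled only after serum (-0.27).

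The genes around these kinases were taken from 8 lists written from general knowledge, with 89 of 94 distinct genes measured. In neither line did any of the 89 pass limma's test after serum. Before adjustment 7 had a p below 0.05 in shControl cells (9.03% of all genes) and 10 in shCDK8 cells (9.59%). Averaged over the lines 2 of 89 rose and none fell, where 143 of all genes (0.776%) were called. These were CEBPB, a C/EBP factor (0.30 ± 0.05, adjusted p = 0.0348), and CREM, a CREB relative (0.24 ± 0.05, adjusted p = 0.0492). The call of CEBPB ended without any 1 of 7 arrays, all but starved array 2 of shCDK8, and that of CREM without any 1 of the 8. Without 1 array the adjusted p reached 0.161 for CEBPB (starved array 1 of shCDK8) and 0.208 for CREM (the same array). SIK3 and TRIB3, the remaining paralogs, changed by 0.07 and 0.09 in that average and did not pass (adjusted p = 0.572 and 0.484).

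Between the lines, 10 of the 89 genes were higher and 11 lower in starved shCDK8 cells, and 7 were higher and 14 lower after serum. Over all genes tested 7.13% were higher and 6.28% lower in starved cells, and 7.7% and 6.54% after serum, against which the counts of each list are to be read. Of 12 AMPK-family kinases, PRKAA2, a catalytic subunit of AMPK, was 3.04-fold higher in starved cells (log2 1.60 ± 0.10, adjusted p = 9.11e-06) and 3.97-fold higher after serum (1.99 ± 0.10), whereas PRKAA1, the other catalytic subunit, was lower in starved cells (-0.28 ± 0.07, adjusted p = 0.0244). SNRK, another kinase of this family, was higher after serum (0.31 ± 0.07, adjusted p = 0.0169), and no other gene of this list was called. Of 10 AGC kinases related to SGK1, the ribosomal S6 kinase family members RPS6KA5 (-0.80 and -1.10) and RPS6KA1 (-0.69 and -0.53) were lower and RPS6KA2 higher (0.45 and 0.60) at both times. Of 11 SGK1 substrates and regulators, 2 were higher and 3 lower in starved cells and 1 was higher and 4 lower after serum. NR3C1, the glucocorticoid receptor, was lower (-0.56 and -0.60), as was SCNN1A, a subunit of the epithelial sodium channel (-0.40 and -0.55), and NEDD4L, the ubiquitin ligase that SGK1 phosphorylates, was higher (0.43 and 0.50).

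Among 9 Tribbles partners and relatives, 1 was higher and 2 lower in starved cells and 0 higher and 2 lower after serum. COP1, the ligase that Tribbles proteins bind, was higher in starved cells (0.27 ± 0.07, adjusted p = 0.0369) and the MAP kinase kinase MAP2K4 lower (-0.39 ± 0.08, adjusted p = 0.0111), and MAP2K1, another MAP kinase kinase, was lower after serum (-0.35 ± 0.07, adjusted p = 0.00782). CDC25C, a mitotic phosphatase on both the Tribbles and the PIM list, was lower at both times (-1.18 and -1.23). Of 16 PIM substrates and inducers, 2 were higher and 2 lower in starved cells and 1 was higher and 3 lower after serum. CDKN1A, the cell-cycle inhibitor p21, was higher in starved cells (0.45 ± 0.10) and MYC, a transcription factor, was higher after serum (0.34 ± 0.06, adjusted p = 0.00530), while CDC25A was lower at both times (-0.31 and -0.39). Of 11 CREB, CRTC and class IIa histone deacetylase genes, HDAC9 was higher at both times (0.40 and 0.35), and HDAC5, also of class IIa, was lower after serum (-0.28 ± 0.07, adjusted p = 0.0334). Of 11 upstream activators, RICTOR, the defining subunit of mTORC2, was lower at both times (-0.38 and -0.39), and STK11, which encodes LKB1, did not pass. Of 10 NUAK substrates and partners, the myosin light chain kinase gene MYLK was higher (0.41 and 0.51) and PLK1, a mitotic kinase, lower (-0.57 and -0.43) at both times. MYL12A, a myosin regulatory light chain, was higher in starved cells (0.35 ± 0.09, adjusted p = 0.0337), and PPP1R12B, a myosin phosphatase subunit, was lower after serum (-0.38 ± 0.10, adjusted p = 0.0343). Of the 18 list genes named by the rule at each time, 9 in starved cells and 7 after serum lost the threshold under at least 1 alternative. These were PRKAA1, RICTOR, NR3C1, NEDD4L, COP1, MAP2K4, CDKN1A, CDC25A and MYL12A in starved cells and SNRK, RICTOR, HDAC9, HDAC5, MAP2K1, CDC25A and PPP1R12B after serum.

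For the 6 genes whose group means spanned at least 0.5, the genes with the most similar course over the 8 arrays were found by the root mean square difference of levels centred on each gene's mean. SIK1 was closest to BHLHE40, a transcriptional repressor of the basic helix-loop-helix class (0.17), then to DUSP5 (0.28) and IER2 (0.34). NUAK2 was closest to the chemokine CXCL8 (0.0997), SLC25A25 (0.18) and GADD45B (0.18). TRIB1 was closest to NFKBIZ, a nuclear regulator of NF-kB (0.0924), to MCL1, a survival factor of the BCL2 family (0.11), and to DNAJB4 (0.13). TRIB2 was closest to TNFRSF21 (0.0986), SIPA1L2 (0.0988) and GRIN2B (0.1005), SIK2 to ETV4 (0.0314), ADGRG1 (0.0340) and CBX6 (0.0362), and SGK1 to CAMK1D (0.0594), MANEA (0.0689) and TMEM131L (0.0700). The TRIB2 and SIK2 neighbours were higher in shCDK8 than in shControl cells at both times, and the SIK1 and NUAK2 neighbours were higher after serum in both lines. DUSP5 and IER2 were also lower in shCDK8 cells at both times. After serum the centred mean of IER2 was 0.87 in shControl and 0.33 in shCDK8 cells. A shared course is built in, because the neighbours were picked for likeness.

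**Figure D5:**
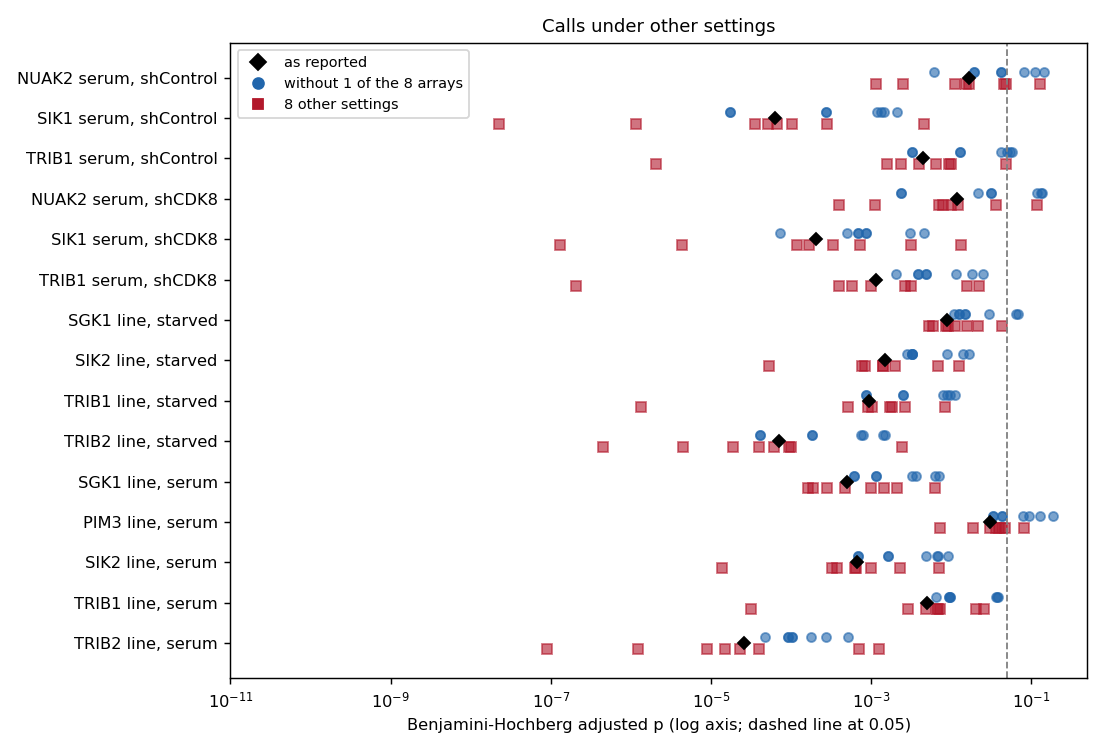
Benjamini-Hochberg adjusted p (log axis) of each call in 1 line or at 1 time, as reported (black diamonds), without each of the 8 arrays (blue circles) and under 8 other settings (red squares), with a dashed line at 0.05. Every point of SIK1, SIK2, TRIB2, the line differences of TRIB1 and its serum change in shCDK8 cells, and SGK1 after serum lies left of the line, whereas NUAK2, PIM3, TRIB1 after serum in shControl cells and SGK1 in starved cells cross it under some settings.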

How the data were processed

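Total RNA of 8 HCT116 samples was measured on 1 array each, with groups as labelled. The authors deposited log2 probe set levels, made with RMA, per the submitters' processing notes. Joint normalization, build and version were not given in the sources used here. Of 33297 probe sets, 19460 were annotated with 1 gene, 1754 with several and 12083 were not listed. The probe set with the highest mean stood for each gene, and the SIK1 probe set annotated with 2 genes was added, which gave 18418 genes. Group means of the 4 groups were estimated in limma 3.58.1 (R 4.3.3; 4 residual and 5.49 prior degrees of freedom), with no filter, and two-sided p-values were adjusted by Benjamini-Hochberg per contrast, threshold 0.05. Members and lists were chosen with earlier results of these data known. From each list, up to 3 called genes with the largest change per contrast are named; for likeness, the 3 nearest genes. The alternatives were an intensity trend, the compared arrays alone, a replicate block, genes above the 25th percentile, cyclic loess, median centring, the mean of probe sets, all probe sets in one fit, and leaving out each array. On simulated data for the serum contrast of shControl cells (18418 genes, 50 per size), 60% of shifts of 0.5, 98% of shifts of 1 and 100% of shifts of 2 and 3 on the log2 scale were recovered, and 6 of 185 calls (3.24%) were false. The simulated noise was normal and independent between arrays, with the SDs shuffled among genes and no array effects. These shares therefore describe the method under its own assumptions and not the error of the real arrays. Array number limits the precision. Figures were drawn with matplotlib 3.10.9.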

Additional observations from a re-analysis of the deposited data

How the results depend on the processing

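The replicate block left the counts of called genes among the 10 at 3, 3, 3, 4, 5 and 0 in the order serum in shControl, in shCDK8 and averaged, lines starved, lines after serum, and difference of responses, so pairing changed no call of theirs. The block ended the averaged serum calls of CEBPB (adjusted p = 0.0715) and CREM (0.0869), as did all probe sets in one fit (0.117 for each), and the intensity trend ended that of CREM (0.109). The labels give the numbers no meaning, and deviations of same-numbered arrays correlated between groups at -0.19 to 0.13. Without 1 array the counts were 1 to 3, 2 to 3, 3 to 3, 3 to 4, 4 to 5 and 0 to 0. The count of 1 came without starved array 2 of shControl, where NUAK2 and TRIB1 lost the threshold. With all probe sets in one fit they were 2, 2, 3, 4, 4 and 0. The other alternatives left the counts as reported. Beside the members, over all genes, an intensity trend gave 129, 101 and 237 called genes in the serum comparisons in place of 86, 48 and 143, and 7 in place of 0 for the difference of responses. A fit of the compared arrays alone gave 30 in shCDK8 cells, and all probe sets in one fit gave 33, 23 and 77 in the serum comparisons, 1429 between starved lines and 1538 after serum. Without 1 array these counts fell as low as 35, 24, 90, 1468 and 1452, and 1 gene was called for the difference of responses at most. Changes of members that were not called changed sign under some settings. Array median centring gave 0.00886 for PIM1 and 0.00184 for SIK2 (serum in shControl cells) and 0.0190 for NUAK2 (starved lines), and cyclic loess gave 0.00789 for that NUAK2 difference. Leaving out 1 array spanned 0 for serum in shControl cells NUAK1 (-0.0178 to 0.0503), PIM1 (-0.0673 to 0.0215), PIM2 (-0.0470 to 0.17), SGK1 (-0.0464 to 0.14), SIK2 (-0.0676 to 0.00787), TRIB2 (-0.32 to 0.0232), and for serum in shCDK8 cells NUAK1 (-0.0322 to 0.14), PIM1 (-0.0556 to 0.14), PIM2 (-0.0595 to 0.21), SIK2 (-0.0454 to 0.14), TRIB2 (-0.0339 to 0.12), and for serum averaged over the lines NUAK1 (-0.00794 to 0.0779), PIM1 (-0.0392 to 0.0573), PIM2 (-9.0e-05 to 0.13), SIK2 (-0.0376 to 0.0558), TRIB2 (-0.14 to 0.0340), and for the lines in starved cells NUAK2 (-0.0609 to 0.0543), and for the lines after serum NUAK2 (-0.0634 to 0.31), PIM1 (-0.14 to 0.0498), SIK1 (-0.21 to 0.16), and for the difference of responses NUAK1 (-0.0484 to 0.12), NUAK2 (-0.0602 to 0.32), PIM1 (-0.0327 to 0.16), PIM2 (-0.12 to 0.15), SIK1 (-0.34 to 0.0371), SIK2 (-0.0155 to 0.17). No called change of a member reversed under any of these alternatives.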
